A study of Mus musculus with 4 samples.

Results

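Early immature olfactory sensory neurons, which the authors' deposited annotation names iOSN1, were described here in the main olfactory epithelium of 4 male C57BL/6 mice (C57BL/6J in the study's methods) aged 8 weeks. These mice formed the only group and were sampled at rest. The epithelia were dissociated with papain, live nucleated cells were sorted as Hoechst-positive and DRAQ7-negative, and each mouse gave 1 droplet-based library of transcript 3′ ends, in which each molecule is counted once through a unique molecular identifier (UMI). All 866 cells with the annotation iOSN1 were taken, out of 15859 cells that the authors retained. Mice 1 to 4 contributed 239, 229, 162 and 236 of them. Their share of retained cells was 5.33%, 6.17%, 5.39% and 5.07% in mice 1 to 4, with a mean of 5.49% ± 0.47 (SD, n = 4).

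In the olfactory epithelium new sensory neurons are made throughout life. Globose basal cells (GBC) divide and give immediate neuronal precursors (INP), which leave the cell cycle and become immature neurons (iOSN), and these extend an axon to the olfactory bulb and a dendrite with sensory cilia before they turn into mature olfactory sensory neurons (mOSN). On the way each neuron comes to express a single odorant receptor gene from a very large family. Translation of the receptor in the endoplasmic reticulum feeds back through the unfolded protein response and the transcription factor Atf5, which is known to stabilize the choice. Gap43, a growth cone protein of extending axons, is the classical label of immature olfactory neurons, and Omp that of mature ones.

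The libraries held between 23157467 and 32382702 UMIs. An iOSN1 cell held a median of 6830.5 UMIs and 2892.5 detected genes, and the iOSN1 cells of a mouse together gave between 1438961 and 2024746 UMIs. Pairs of libraries shared between 4 and 14 cell barcodes, and 0 of the iOSN1 barcodes were shared. In mouse 4, a single iOSN1 cell held 3483 UMIs of haemoglobin and other blood genes out of its 12552 UMIs, whereas the next highest cell held 4. The counts of genes that differed between cell types and the tests within iOSN1 were therefore also computed without it. Levels are given as UMIs of a gene per 10000 non-receptor UMIs, from the sum over all cells of a type in a mouse. They are not corrected for transcript length and are compared between cell types for the same gene, never between genes. Differences between cell types are log2 ratios taken within each mouse after adding 0.1 to each level, with the SD over the 4 mice. The annotation came from clustering these cells on their genes, so the levels by cell type describe what the clusters are and carry no test.

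Of the marker genes of immature neurons, Gap43 set iOSN1 apart from every other type, whereas Gng8 and Dpysl3 were shared with INP. Gap43 stood at 31.0, 31.9, 34.5 and 32.1 UMIs per 10000 in iOSN1 of mice 1 to 4. The corresponding levels were 3.54, 0.98, 1.885 and 2.58 in INP, and 8.39, 9.61, 8.25 and 9.02 in iOSN2, the later immature neurons. Every iOSN1 level lay above every level of both neighbours, with log2 differences of 3.92 ± 0.77 and 1.87 ± 0.14. Gng8, a G protein gamma subunit of immature olfactory neurons, stood at 12.1, 11.6, 13.4 and 12.3 in iOSN1 and at 11.9, 11.8, 14.0 and 11.4 in INP. These ranges overlapped, with a log2 difference of 0.01 ± 0.08, whereas iOSN2 had a mean of only 1.24. Dpysl3, which encodes a collapsin response mediator of the axonal cytoskeleton, behaved likewise, with means of 10.4 in iOSN1, 9.51 in INP and 1.27 in iOSN2.

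The markers of other stages placed iOSN1 between INP and iOSN2. The summed level of 5 INP markers (Neurog1, Neurod1, Sox11, Ezh2 and Hes6) was 20.8 in iOSN1, 79.45 in INP and 2.38 in iOSN2. Sox11 alone contributed most of it, and the proneural factors Neurod1 and Neurog1, which drive precursors towards a neuronal fate, were nearly gone. Neurod1 stood at 0.015, 0.013, 0.033 and 0.077 UMIs per 10000 in iOSN1 and at 6.975, 12.0, 9.27 and 10.3 in INP. After each cell was thinned to 3000 UMIs, which 831 of the 866 iOSN1 cells reached, a Neurod1 UMI was present in 0.66% ± 0.56 of iOSN1 and in 67.8% ± 11.1 of INP, and in 0.48% of the Mv2 microvillar cells, which should lack it. The summed level of 6 markers of mature neurons (Omp, Adcy3, Cnga2, Gng13, Cnga4 and Stoml3) was 37.1 in iOSN1, against 7.51 in INP, 197 in iOSN2 and 271 in mOSN. Omp had a UMI in 39.6% ± 3.8 of thinned iOSN1 cells, above the 12.6% of Mv2 and 15.1% of sustentacular cells, which should lack it, and below the 100.0% of mOSN.

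Cells of other lineages contributed little, after the authors had removed clusters of blood and immune cells. Summed over their lists, markers of horizontal basal cells stood at 0.047, of sustentacular cells at 0.14, of microvillar cells at 0.94 and of immune cells at 0.077 UMIs per 10000 in iOSN1. Markers of dividing cells were rare. Top2a, a topoisomerase of proliferating cells, had a UMI in 1.96% of thinned iOSN1 cells, against 2.16% of INP, 1.37% of sustentacular cells and 0.46% of Mv2, and Mki67 in 0.46%, 2.19%, 0.75% and 0.41%.

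A gene was taken as leading iOSN1 when it reached 1 UMI per 10000 there, was at least 2-fold above each of the 9 other retained types on the mean and was higher in 4 of 4 mice against each. Of 1926 genes at that level, 12 met this, which is 0.623%. They were, from the largest to the smallest margin, Prph, Stk32a, Gap43, Rnf144a, Ccdc28a, Ina, Nrp1, Mef2b, Socs2, Ly6h, Serf1 and Rgs11. The type closest in level was iOSN2 for Prph, Stk32a, Gap43, Ccdc28a, Nrp1, Mef2b and Ly6h, and INP for the others. Just inside the limit, Serf1 and Rgs11 had smallest log2 differences of 1.08 and 1.03, and just outside it Crmp1 and Ctxn1 had 0.91 and 0.90. The genes with the smallest margins depended on the libraries: without mouse 2 the list held 9 genes and lost Socs2, Serf1 and Rgs11.

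Among them, Prph and Ina encode peripherin and alpha-internexin, neuronal intermediate filament proteins of growing axons. Prph stood at 2.64, 2.56, 2.73 and 2.75 UMIs per 10000 in iOSN1, at 0.16, 0, 0.14 and 0.20 in INP and at 0.41, 0.28, 0.27 and 0.29 in iOSN2. Mature neurons had a mean of 0.037, and every iOSN1 level lay above every level of INP, iOSN2 and mOSN. Ina stood at 2.33, 2.09, 2.775 and 2.31 in iOSN1, with means of 0.94 in INP and 0.39 in iOSN2. The 2 promoters are printed here because both genes peak in the same cells. Each is the 250 bases before the RefSeq start on the GRCm38.p6 build, 5′ to 3′, with the motifs found in capitals.
Prph, chr15:99054924-99055173, plus strand: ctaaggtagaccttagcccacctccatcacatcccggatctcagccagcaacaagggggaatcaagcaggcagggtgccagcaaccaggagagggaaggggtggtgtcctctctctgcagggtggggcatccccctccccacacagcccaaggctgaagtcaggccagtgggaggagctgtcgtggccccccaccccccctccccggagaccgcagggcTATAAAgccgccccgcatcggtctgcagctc
Ina, chr19:47014431-47014680, plus strand: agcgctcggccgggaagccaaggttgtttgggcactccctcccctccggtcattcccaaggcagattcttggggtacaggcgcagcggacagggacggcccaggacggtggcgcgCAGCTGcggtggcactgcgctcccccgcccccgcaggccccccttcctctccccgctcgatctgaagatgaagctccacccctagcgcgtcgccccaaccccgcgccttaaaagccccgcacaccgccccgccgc

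Both strands were searched for an EBF site, an E-box (CAGCTG), a homeodomain site (TAATTA) and a TATA box (TATAAA). Prph held a TATA box, which 12.4% of the 32851 mouse promoters in the RefSeq table hold, and Ina held an E-box, which 13.0% hold. Of the 12 leading genes, 7 had a promoter in the table, and 0 of these held the homeodomain letters, which occur in 4.84% of all promoters, or the EBF site, which occurs in 0.779%. These matches describe the letters only.

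The other leading genes were of mixed kinds. Nrp1, a receptor for axon-repelling semaphorins, stood at 1.27, 1.465, 0.98 and 1.38 UMIs per 10000 in iOSN1 and at 0.39, 0.58, 0.44 and 0.50 in iOSN2, without overlap. Mef2b, a MADS-box transcription factor gene, stood at 5.76, 5.35, 5.84 and 5.585 in iOSN1 and at 2.21, 2.45, 2.75 and 2.29 in iOSN2, again without overlap. In the GENCODE M21 annotation Mef2b overlaps Borcs8 on the same strand, so reads of these 2 genes may not be fully separable. Socs2, an inhibitor of cytokine signalling, stood at 4.965, 4.596, 5.20 and 3.90 in iOSN1 against means of 2.19 in INP and 1.88 in iOSN2. Stk32a, a serine/threonine kinase gene, had a mean of 3.13 in iOSN1, 0.73 in iOSN2 and 0.0088 in mOSN. Ly6h, a membrane-anchored protein of the Ly6 family, kept 2.42 in iOSN2 and 0.13 in mOSN.

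**Figure D1:**
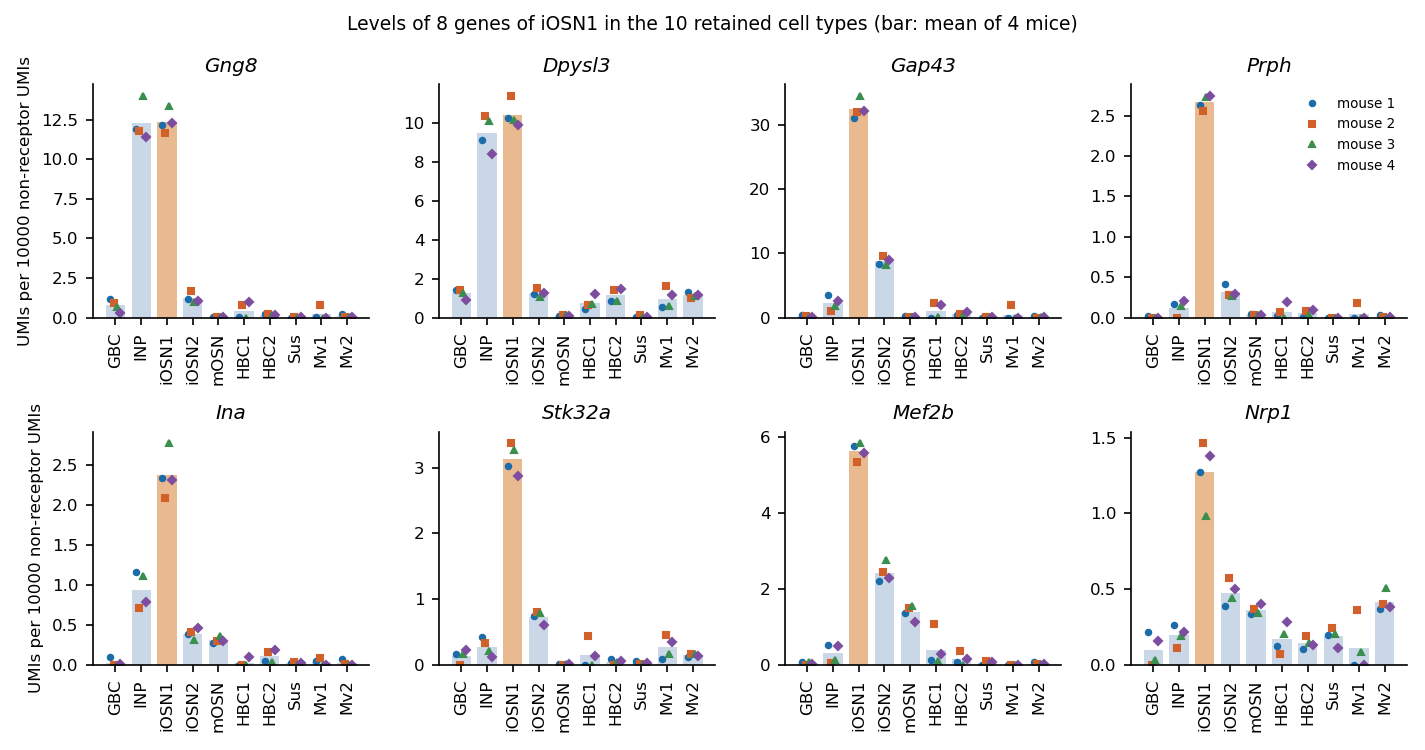
Levels of 8 genes of early immature neurons in the 10 retained cell types, as UMIs per 10000 non-receptor UMIs on the vertical axis, with 1 point per mouse. Gng8 and Dpysl3 reach similar levels in INP and iOSN1, whereas the other genes are highest in iOSN1, and Gap43 lies between 31.0 and 34.5 there.

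The step from INP to iOSN1 was the wider of the immature steps. A gene was counted as higher or lower when the mean ratio was at least 2-fold and had the same direction in 4 of 4 mice, among genes at 0.2 UMIs per 10000 or more in either type. Against INP, 871 of 7376 genes were higher in iOSN1, which is 11.8%, and 450 were lower, which is 6.10%. Against iOSN2, 343 of 7229 were higher, which is 4.74%, and 445 lower, which is 6.16%. Against mOSN, 683 of 7430 were higher, which is 9.19%, and 701 lower, which is 9.43%. With 0.5 added in place of 0.1 the counts were 225 and 177 against INP, 113 and 148 against iOSN2, and 235 and 273 against mOSN. The median log2 difference over all compared genes was 0.13, 0.091 and 0.083 against the 3 types, and it became 0.10, -0.057 and -0.24 with TMM scaling. With that scaling the share of higher genes among those counted went from 43.5% to 30.9% against iOSN2 and from 49.3% to 28.3% against mOSN, and the 98 and 116 counted genes that the rule for named genes picked kept their direction. The INP sums rest on 284 cells and the iOSN1 sums on 866, with medians of 7545.5 and 6830.5 UMIs per cell.

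The largest differences from INP were in Calb2 and in Neurod1. Calb2 encodes the calcium buffer calretinin and stood at 23.3, 23.95, 23.9 and 23.4 UMIs per 10000 in iOSN1 and at 1.56, 0.65, 0.26 and 1.24 in INP. It was as high in iOSN2, at a mean of 21.5, and lower in mOSN, at 3.66. The cell adhesion gene Cntn4 stood at 0.35 in INP and 4.22 in iOSN1. On the other side, the neuropeptide gene Grp stood at 9.32 in INP and at 0.073 in iOSN1, and Baz1a, which encodes a subunit of a chromatin remodelling complex, at 17.6 and 0.48. Scg2, a gene of neuroendocrine granules, stood at 3.70 and 0.065.

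Relative to iOSN2, the genes still high in iOSN1 included several of precursors. Crabp1, a binding protein of retinoic acid, stood at 11.4, 8.65, 8.98 and 10.8 UMIs per 10000 in iOSN1, at a mean of 41.9 in INP and at 0.079 in iOSN2. The basic helix-loop-helix factor Nhlh1 had means of 3.47, 2.36 and 0.075 in INP, iOSN1 and iOSN2. Vim, the intermediate filament protein vimentin, was highest in iOSN1 at 14.2, against 8.02 in INP and 1.10 in iOSN2. Genes of mature function were lower than in iOSN2. S100a5, a calcium-binding protein of mature olfactory neurons, stood at 8.92, 4.84, 3.91 and 11.7 in iOSN1 and at 185, 152, 141 and 156 in iOSN2. Omp stood at 5.80 and 47.7 in iOSN1 and iOSN2, and Stoml3, a stomatin-like protein of olfactory cilia, at 6.66 and 55.9.

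Among proneural and progenitor factors, 7 of the 8 genes compared were lower in iOSN1 than in INP and 0 were higher, beside 6.10% and 11.8% of all genes. They were Neurog1, Neurod1, Hes6, Sox4, Sox11, Btg2 and Ezh2, with log2 differences between -6.17 and -1.40. Insm1, a zinc finger repressor of neuronal precursors, stood at 2.08 UMIs per 10000 in iOSN1 and 0.98 in INP, and at 0.78 in iOSN2. Its log2 difference from INP, averaged over mice, was 0.99 ± 0.23, so it was not counted as higher. Against iOSN2, 4 of 6 compared members were higher in iOSN1 and 0 lower, beside 4.74% and 6.16% of all genes, with Sox11 at 3.302 and Hes6 at 2.18 on the log2 scale. Of 22 cell cycle genes 7 were compared with INP, and 0 were higher and 2 lower in iOSN1, beside 11.8% and 6.10% of all genes. The 2 were Ube2c and the inhibitor gene Cdkn1b, with log2 differences of -2.43 and -1.86. Against iOSN2, 2 of 5 compared cell cycle genes were higher in iOSN1 and 0 lower, beside 4.74% and 6.16% of all genes.

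Transcription regulators of olfactory neurons differed member by member. Against INP, 2 of 19 were higher, a share near the 11.8% of all genes, and 6 were lower, beside 6.10%. Lhx2, a LIM homeodomain factor required for receptor expression, stood at 8.03, 7.02, 7.825 and 6.93 UMIs per 10000 in iOSN1, far below 29.8, 36.2, 32.9 and 29.1 in INP and above a mean of 4.33 in iOSN2. Its partner in receptor gene activation, Ebf1, did not follow this course, with means of 18.9 in INP, 21.4 in iOSN1 and levels between 10.8 and 11.1 in iOSN2. Nhlh2 was lower than in INP by a log2 difference of -2.50, whereas Ebf4 was higher, at 0.91 against 0.15. Against iOSN2, 8 of 17 were higher in iOSN1 and 0 lower, beside 4.74% and 6.16% of all genes, with Nhlh1 at 3.82 and Dlx5 at 2.04 on the log2 scale.

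Among heterochromatin and receptor choice genes, 2 of 17 were higher and 3 lower than in INP, where 11.8% and 6.10% of all genes were, so the share of higher members was that of all genes. Against iOSN2 4 of 15 were higher and 0 lower, beside 4.74% and 6.16% of all genes. Kdm1a, the histone demethylase that permits a receptor gene to become active and is turned down afterwards, stood at 1.705, 1.505, 1.65 and 1.67 UMIs per 10000 in iOSN1, with means of 3.595 in INP and 0.70 in iOSN2. Smchd1, a protein of silenced chromatin, stood at 13.35 in INP, 1.79 in iOSN1 and 0.74 in iOSN2. Hdac2, a histone deacetylase, stood at 5.37 in iOSN1, against 3.58 in INP and 1.00 in iOSN2. Trim66 and Dnmt3a were the 2 members counted as higher than in INP, at 2.17 against 1.00 and 1.53 against 0.52. Lbr, a lamin receptor that is low in olfactory neurons, was at 0.16 in iOSN1 and 0.12 in iOSN2.

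Among genes of receptor trafficking and the unfolded protein response, 7 of 14 members were higher than in INP, beside 11.8% of all genes, and Ddit4 was lower. Against iOSN2 0 of 15 were higher and 4 lower, beside 4.74% and 6.16% of all genes. Atf5 stood at 41.2, 41.5, 42.4 and 39.7 UMIs per 10000 in iOSN1, above 16.4, 14.9, 15.2 and 13.7 in INP and also above 32.9, 32.0, 32.7 and 29.9 in iOSN2. Ddit3, a stress-induced factor of the same response, was at 1.88 against 0.48 in INP, and Herpud1, of endoplasmic reticulum degradation, at 3.61 against 0.69. Trib3 was at 0.78, against 0.0073 in INP. The chaperone gene Hspa5 was not 2-fold apart, at 4.88 against 3.33. The receptor transporters Rtp1 and Rtp2, which carry odorant receptors to the cell surface, were at 1.49 and 1.99, between the 0.30 and 0.34 of INP and the 3.16 and 3.44 of iOSN2.

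Among axon growth genes, 9 of 26 members were higher than in INP and 2 lower, beside 11.8% and 6.10% of all genes. Against iOSN2, 16 of 25 were higher and 1 was lower, beside 4.74% and 6.16%. The tubulin gene Tubb2b was at 27.8 in INP, 29.7 in iOSN1 and 5.05 in iOSN2, and Stmn2, a microtubule regulator of growing neurites, at 41.0, 41.3 and 16.5. Mapt, which encodes tau, was at 1.52 in iOSN1 against 0.68 in INP and 0.19 in iOSN2, and Dcx, doublecortin of migrating and growing neurons, was at 4.09 against 0.91 and 2.47. Stmn4 was the member that ran the other way and was lower than in iOSN2, at 3.86 against 13.6.

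Among guidance and sorting molecules, 10 of 19 were higher than in INP, beside 11.8% of all genes, including Ncam2, an adhesion molecule of ventral axons, at 1.955 against 0.25, and Sema3a was lower, at 0.24 against 1.14. Against iOSN2, 1 of 22, Nrp1, was higher, which is near the 4.74% of all genes, 6 were lower, beside 6.16%, and 15 were neither. Those 6 included the contact molecules that sort axons near the glomeruli: Kirrel2 stood at 0.88, 0.76, 0.55 and 0.87 UMIs per 10000 in iOSN1 and at 5.09, 5.38, 5.18 and 5.28 in iOSN2. Epha5 stood at a mean of 0.49, against 4.22 in iOSN2.

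The transduction cascade was present in part. Of 18 members compared with INP 12 were higher in iOSN1 and 2 lower, beside 11.8% and 6.10% of all genes. Of 17 compared with iOSN2 13 were lower and 2 higher, beside 6.16% and 4.74%. The 2 G protein alpha subunits ran in opposite directions. Gnas stood at 1.96, 2.125, 2.13 and 2.23 UMIs per 10000 in iOSN1, between 14.5 in INP and 0.36 in iOSN2, whereas Gnal, the olfactory form, stood at 4.56, 4.70, 4.43 and 3.95, between 0.87 and 17.7. Gng13 and the channel subunit Cnga2 had reached 22.02 and 1.57, against 83.35 and 4.685 in iOSN2. Adcy3, the cyclase of the cascade, stood at 0.70 in iOSN1, 0.39 in INP, 2.85 in iOSN2 and 11.1 in mOSN. The mature neuron markers in INP of mouse 4 summed to 14.4, against 4.64 to 5.945 in the other mice, so that library stood apart in INP. Without mouse 4, 936 genes were higher and 461 lower than in INP, and of 103 counted genes picked by the rule for named genes 101 were still counted and 103 kept their direction.

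Of 23 genes of ciliary transport and the Bardet-Biedl complex, 4 were higher than in INP and 1 lower, and against iOSN2 only Dynlrb2 of 24 was lower and 0 were higher, which is near the shares of all genes, 11.8% and 6.10% against INP and 4.74% and 6.16% against iOSN2. Beside the same shares, of 15 presynaptic genes 6 were higher than in INP and 0 lower, and of 17 compared with iOSN2 6 were lower and 0 higher. Those higher than in INP included the vesicle fusion genes Snap25 at 1.69 against 0.32 and Syt1 at 1.90 against 0.64. The vesicular glutamate transporter Slc17a6 and the dopamine receptor Drd2 were still low, at 0.33 and 0.18 in iOSN1, against 2.297 and 0.88 in iOSN2.

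**Figure D2:**
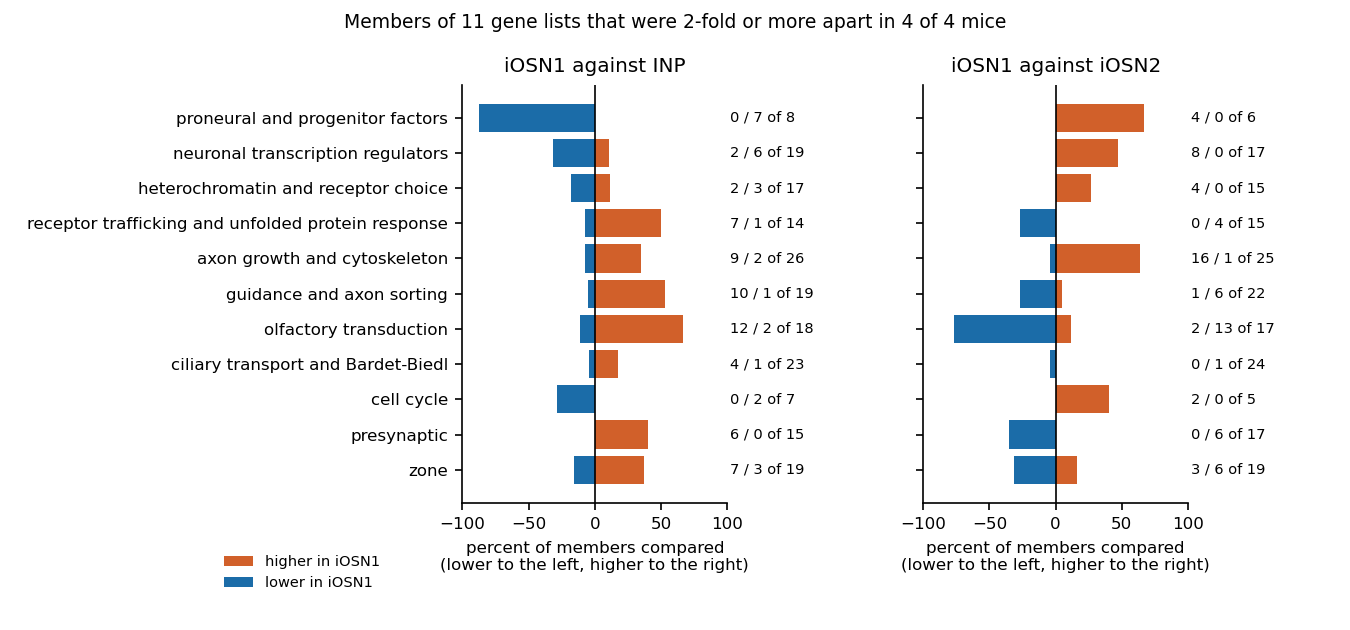
Share of the compared members of 11 gene lists that were at least 2-fold higher (bars to the right) or lower (bars to the left) in iOSN1 with the same direction in 4 of 4 mice, in percent, against INP and against iOSN2, with the counts higher and lower beside each bar. Against INP 7 of 8 proneural members are lower and 12 of 18 transduction members higher, and against iOSN2 16 of 25 axon growth members are higher and 13 of 17 transduction members lower.

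Odorant receptor RNA appeared in these cells in amounts that spread widely from cell to cell. After thinning to 3000 UMIs, a receptor with 2 or more UMIs was found in 65.4%, 79.8%, 75.0% and 72.8% of iOSN1 cells in mice 1 to 4, with a mean of 73.2% ± 6.0. All 4 mice lay between the 7.89% ± 5.57 of INP and the 96.4% ± 1.6 of iOSN2 and 96.9% ± 0.58 of mOSN. Types that should lack receptors had means of 1.79% in Mv2, 5.70% in sustentacular cells, 6.67% in HBC1, 7.42% in HBC2 and 9.68% in Mv1. The INP mice, at 12.2%, 4.545%, 1.79% and 13.0%, overlapped with those types, whereas iOSN1 was above all of them. At this depth 9.88% ± 3.42 of iOSN1 cells had no receptor UMI, against 2.01% ± 0.49 of iOSN2. The share of UMIs from receptor genes was 33.6, 49.4, 40.0 and 33.2 per 10000 in iOSN1, against means of 1.12 in Mv2, 3.304 in INP, 76.2 in iOSN2 and 91.6 in mOSN.

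The highest receptor of a thinned iOSN1 cell had 10 or more UMIs in 39.7% ± 5.3 of the cells, 5 to 9 in 18.1% ± 1.9, 2 to 4 in 15.5% ± 2.2 and 1 in 16.9% ± 2.6. A highest receptor of 1 UMI was as common in INP, at 18.6% ± 6.0, and in Mv2, which should lack receptors, at 14.8% ± 3.2. Mv2 had no receptor UMI in 83.45% of cells. Cells with at least 2 receptors at 2 or more UMIs made up 8.60% ± 2.44 of iOSN1, 7.02% ± 3.60 of iOSN2 and 5.14% ± 0.98 of mOSN, and 0.053% of Mv2. The ranges of the 3 neuronal types overlapped. The median highest receptor among cells with a receptor was 10 or 12 UMIs in each mouse of iOSN1 and between 18 and 20 in iOSN2.

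**Figure D3:**
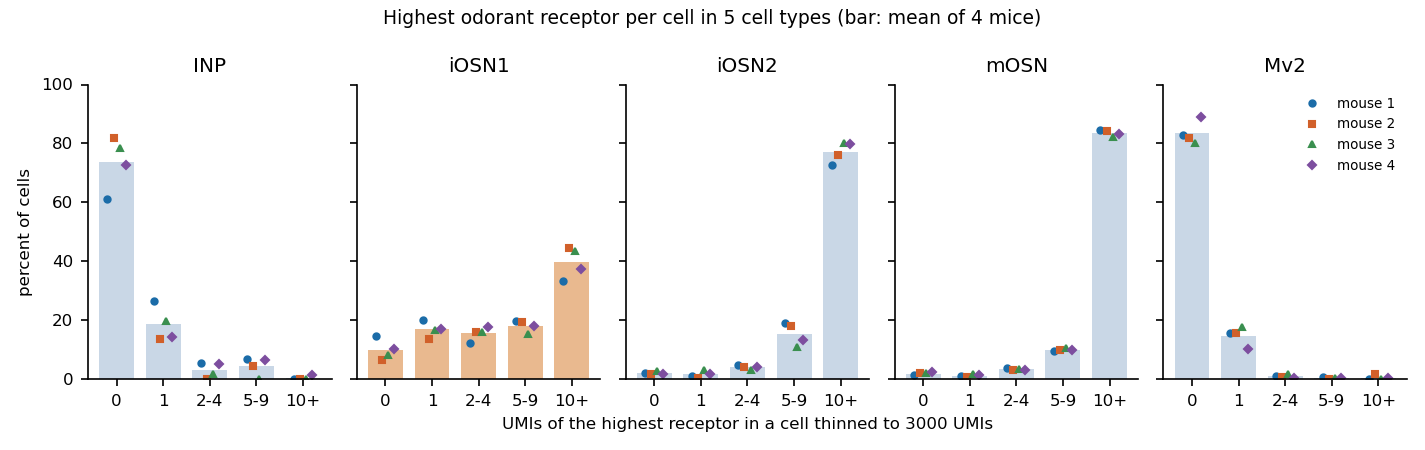
Share of cells by the UMIs of their highest receptor after thinning each cell to 3000 UMIs, with points for the mice and bars for the mean. About 9.88% of iOSN1 cells have none and 39.7% have 10 or more, a spread that lies between those of INP and iOSN2.

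Without thinning, 661 iOSN1 cells had a single highest receptor at 2 or more UMIs, and these were 434 different receptors, none of them the highest in more than 6 cells. Some of these receptors were rare or absent among mature neurons. The highest receptor was the identity of 0 mature neurons in 10.0%, 14.7%, 15.4% and 10.2% of these iOSN1 cells, which came to 82 cells and 55 receptors. In iOSN2 the same share was 5.11%, 4.35%, 3.66% and 3.45%. The share was higher in iOSN1 than in iOSN2 in 4 of 4 mice, and the ranges did not overlap. Where only cells with 20 or more UMIs of the receptor were counted, it was 10.9% ± 3.3 in iOSN1 and 3.31% ± 1.56 in iOSN2.

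Receptor genes annotated as pseudogenes were part of this. One of them was the highest receptor in 3.53%, 5.98%, 5.385% and 3.95% of iOSN1 cells, 31 cells in all, and in 0.59% ± 0.62 of iOSN2 and 0.15% ± 0.045 of mOSN. All iOSN1 mice lay above all mice of the older types. With 20 or more UMIs the shares were 2.83% ± 2.03 in iOSN1 and 0.33% ± 0.66 in iOSN2, and the ranges then overlapped.

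Of the receptors that identified 0 mature neurons, 3 were the highest in at least 4 iOSN1 cells each, and these were picked after their values were seen. Olfr127, a protein-coding gene on chromosome 17 at 37900437 to 37906795 (GRCm38, plus strand), was the highest receptor of 6 iOSN1 cells, from 3 mice, with 4 to 75 UMIs and a median of 35. It was the highest in 2 iOSN2 cells, whereas among 10519 mature neurons 3 had 1 UMI of it and 0 had 2 or more. By counting error alone this allows a share of cells with 2 or more UMIs of up to 0.0285%, which says nothing of cells that express it below that count. Olfr154, on chromosome 2, was highest in 4 iOSN1 cells of 2 mice with 2 to 35 UMIs and in 0 iOSN2 cells. Olfr172, on chromosome 16, was highest in 4 iOSN1 cells of 3 mice with 9 to 34 UMIs, in 0 iOSN2 cells, and had 0 cells with 2 or more UMIs among mature neurons. Counting may drop or misassign reads that match a receptor and its close paralog, so values of single receptors are uncertain. Olfr1348, by comparison, was highest in 6 iOSN1 cells and was the identity of 79 mature neurons.

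Within iOSN1, cells with a receptor were next compared with cells in which none was seen after thinning, groups that were set by receptor UMIs alone. At 3000 UMIs, 606 cells had a receptor at 2 or more UMIs (153, 170, 117 and 166 in mice 1 to 4) and 84 had no receptor UMI (34, 14, 13 and 23). Some of these 84 had receptor UMIs at full depth, where 61 of the 866 iOSN1 cells had none. The sums per mouse were tested with edgeR's quasi-likelihood test with the mouse as a block, without the receptor genes. The test called 267 of 4157 genes at an adjusted p under 0.05 after Benjamini-Hochberg adjustment, which is 6.42%, with 132 higher and 135 lower in cells with a receptor. The count was 167 without mouse 1, 144 without mouse 4 and 111 with DESeq2, and 1102 when cells with 1 receptor UMI were joined to those with none. Without thinning, where cells without a receptor had no receptor UMI at full depth, 247 genes were called. Of the 267 genes, 146 were among these, and 265 kept their direction. Before thinning, cells with a receptor held a median of 8145, 6483, 9644 and 5977.5 UMIs and cells without 6470, 6102.5, 9016 and 4964. The cells with a receptor were deeper in 4 of 4 mice, and both groups were thinned to the same depth before the test. A receptor was also found in a larger share of cells at later stages, 7.89% of INP and 96.4% of iOSN2. Having a receptor therefore cannot be told apart here from the stage of a cell within iOSN1.

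Genes of mature neurons were higher in the cells with a receptor. Stoml3 stood at 7.51, 5.86, 6.47 and 7.42 UMIs per 10000 with a receptor and at 1.765, 0.71, 0 and 0.58 without. The groups did not overlap, and the log2 change was 2.82 ± 0.24 (SE, adjusted p = 5.91e-24). Omp stood at 5.10, 6.70, 5.525 and 5.93 with a receptor and at 2.84, 2.38, 0.77 and 0.43 without, also without overlap, with a change of 1.66 ± 0.21 (adjusted p = 2.32e-11). Of 14 tested genes of the transduction cascade 10 rose and 1 fell, beside 6.42% of all genes called in either direction, with a median log2 change of 1.05 against 0.018 over all genes. Gnal stood at 4.64, 4.18, 4.87 and 4.09 with a receptor and at 1.275, 2.62, 1.28 and 1.01 without. Cnga2 stood at 1.79, 1.68, 1.80 and 1.65 with a receptor and at 0.29, 0.24, 0.77 and 0.29 without. Both rose, by 1.58 and 2.22 on the log2 scale, while Gnas fell by 1.03. Cnga2 had only 9 UMIs in the cells without a receptor, over all mice. Of the 5 tested mature markers, which are also members of the transduction list, 4 rose.

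Of 13 tested genes of receptor trafficking and the unfolded protein response 6 rose, 0 fell and 7 did not pass, where 6.42% of all genes were called in either direction. The median log2 change of the list was 0.68, against 0.018 over all genes tested. Herpud1 stood at 4.14, 5.17, 4.21 and 3.95 UMIs per 10000 with a receptor and at 1.275, 0.48, 0.51 and 1.16 without, a change of 2.08 ± 0.26 (adjusted p = 4e-12). Ddit3 stood at 2.43, 2.90, 2.32 and 1.855 with a receptor and at 0.78, 0, 0.26 and 0.29 without. Its change of 2.39 rests on 11 UMIs in the cells without a receptor. Tmbim6, an inhibitor of cell death in the endoplasmic reticulum membrane that was on no list, stood at 8.93, 8.16, 9.504 and 8.45 against 3.63, 1.905, 1.28 and 0.87. In none of these genes did the groups overlap. Atf5, which is activated at the level of translation, rose by only 0.30 (adjusted p = 0.00721), and this call was lost without mouse 1, without thinning and with DESeq2. Trib3 stood at 0.66, 1.18, 0.66 and 1.11 with a receptor and had a single UMI without one, in mouse 1, so no fold is given, and its call was lost with DESeq2. The call of Atf4 was lost with DESeq2, without mouse 1 and without mouse 4. Hspa5 and Rtp1 had log2 changes of 0.37 and 0.68 that did not pass (adjusted p = 0.223 and 0.17).

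Genes of younger cells and of receptor gene activation were among those that fell with a receptor. Crabp1 stood at 3.195, 3.59, 2.92 and 2.82 UMIs per 10000 with a receptor and at 11.4, 9.76, 16.4 and 15.5 without, a change of -2.10 ± 0.14 (adjusted p = 1.18e-36). This call was lost without thinning, where only cells with 0 receptor UMIs at their full depth count as lacking a receptor. Lhx2 stood at 5.97, 5.76, 6.27 and 5.38 with a receptor and at 10.9, 8.81, 20.3 and 13.0 without, a change of -1.17 ± 0.13 (adjusted p = 1.83e-15). Ebf1, which showed no 2-fold step between INP and iOSN1, stood at 17.1, 18.7, 18.8 and 18.6 with a receptor and at 28.5, 31.9, 35.4 and 32.6 without, a change of -0.84. In each of these 3 genes every mouse was lower with a receptor and the groups did not overlap. Of 15 tested transcription regulators 7 fell and Atf5 rose, beside 6.42% of all genes called in either direction, and the others that fell were Ebf2, Emx2, Tshz1, Nhlh2 and Dlx5, by 0.60, 1.36, 1.22, 0.85 and 1.84 on the log2 scale. The calls of Ebf2 and Nhlh2 were lost without a filter on low counts, and that of Nhlh2 also with DESeq2, without mouse 1 and without mouse 3.

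Of 12 tested genes of the heterochromatin list 1 rose and 2 fell, beside 6.42% of all genes called in either direction. Hdac2 and Cbx3, a heterochromatin protein 1 family member, fell by 0.99 and 0.76 on the log2 scale, and Trim66 rose by 0.93. The call of Cbx3 was lost without mouse 4 and without a filter on low counts, and that of Trim66 without mouse 1, without mouse 2 and with DESeq2. Kdm1a did not pass, at 1.75, 1.48, 1.66 and 1.73 with a receptor and 1.275, 1.43, 0.77 and 1.30 without (adjusted p = 0.516). Of 6 tested proneural and progenitor factors 1 rose and 2 fell, beside the same 6.42%. Sox11 and Hes6 fell by 0.51 and 1.18, and Insm1 rose by 1.70, with 2.495, 3.10, 1.95 and 2.52 against 0.88, 0.48, 0.51 and 0.87. The direction of Insm1 was opposite to that of the other called members of its list. The call of Sox11 was lost without a filter on low counts and that of Hes6 without thinning and without mouse 1.

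The genes that lead iOSN1 did not move together with the receptor. Mef2b rose by 1.75, with 8.01, 5.935, 6.93 and 6.82 UMIs per 10000 with a receptor and 2.255, 3.095, 1.28 and 1.59 without. Stk32a rose by 1.88, Ccdc28a by 1.71 and Gap43 by 0.53 on the log2 scale. Prph and Ina stood lower with a receptor by 0.42 and 0.47, which did not pass (adjusted p = 0.218 and 0.179), and the groups overlapped. Socs2, Rnf144a and Dpysl3 did not pass either, with log2 changes of -0.21, 0.26 and 0.03. Gng8 rose by 0.48 in 4 of 4 mice (adjusted p = 0.00203), a call lost with DESeq2 and without thinning. Of the axon growth list 2 rose and 2 fell among 24 tested, against 6.42% of all genes called. Of these 4 calls, that of Tubb3 was lost under 7 alternatives and those of Basp1 and Ncam1 under 6 each, including DESeq2. Of 12 tested guidance genes 1 rose and 2 fell, beside the same 6.42% of all genes. Nrp2 stood at 0.98, 1.60, 0.77 and 1.41 with a receptor and at 2.84, 3.095, 2.56 and 2.61 without, a change of -1.27 (adjusted p = 1.57e-05) whose call was lost without thinning. The call of Plxna4, which rose, was lost with DESeq2, without thinning and without mouse 1, and that of Efna5, which fell, with DESeq2, without a filter on low counts, without mouse 1 and without mouse 4. Of 15 tested genes of the zone list, described below, 2 rose and 5 fell, beside the same 6.42%. Nqo1, of the dorsal zone, rose by 1.16, and Nfib and Nfia fell by 0.82 and 1.09. Each of these calls was lost with DESeq2. Nfix, of the ventral zone, stood higher by 0.80, which did not pass (adjusted p = 0.0537). Whether the groups differed in zone was not tested.

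**Figure D4:**
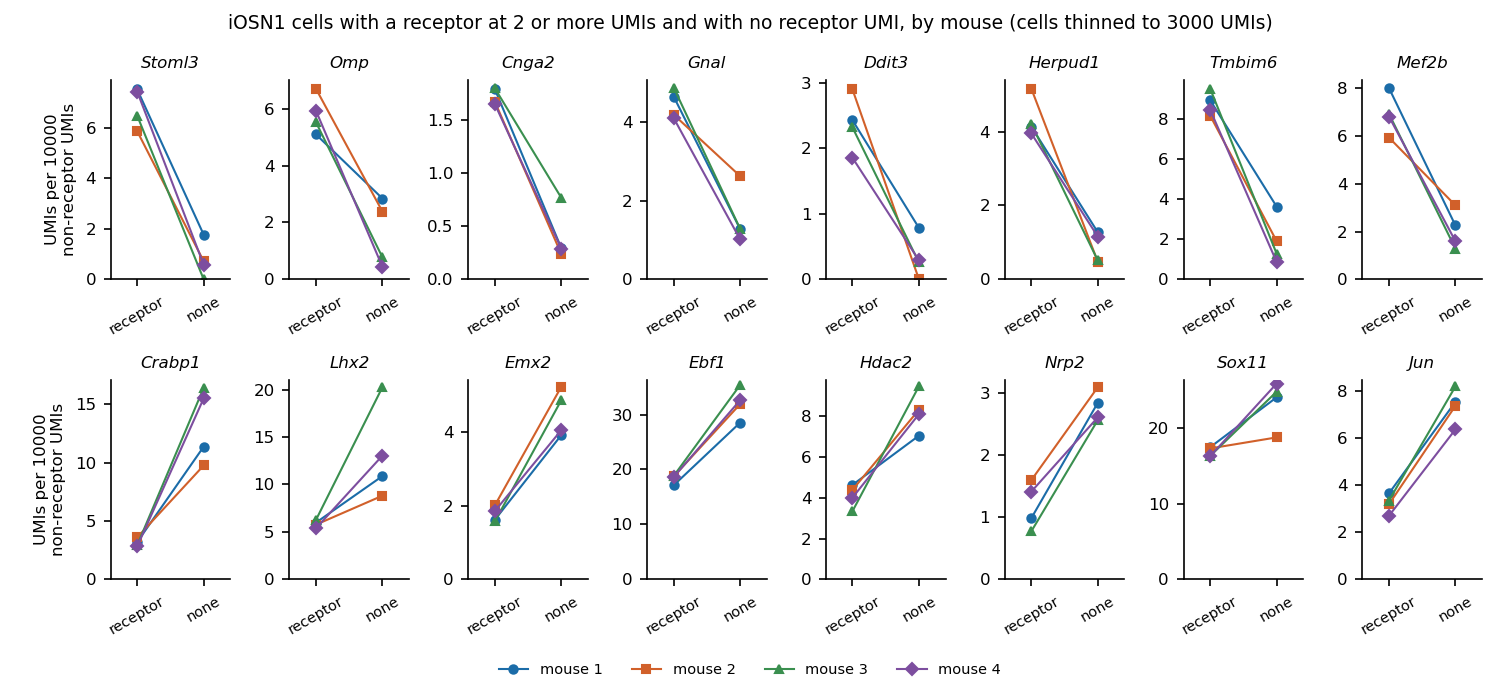
Levels of 16 genes in iOSN1 cells with a receptor at 2 or more UMIs and with no receptor UMI, as UMIs per 10000 non-receptor UMIs, with a line per mouse and cells thinned to 3000 UMIs. Stoml3 lies between 5.86 and 7.51 with a receptor and at most at 1.765 without, and Crabp1 between 2.82 and 3.59 against 9.76 or more.

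Cells of iOSN1 with a dorsal and with a ventral receptor were compared last. Olfactory neurons sit in a dorsal and a ventral zone of the epithelium, and each receptor is used in its own zone. A receptor was called dorsal or ventral when at least 2 in 3 of its mature neurons, with at least 3 of them, lay in mature clusters that the authors named dorsal or ventral, clusters that were made without receptor genes and without any iOSN1 cell. By this map, which covered 759 receptors, 101 iOSN1 cells (38, 19, 26 and 18 in mice 1 to 4) had a dorsal receptor and 394 (98, 108, 70 and 118) a ventral one. Of the 661 cells with a single highest receptor, the other 166 had a receptor with no side and were left out. Among cells with a side, the dorsal share was 27.9%, 15.0%, 27.1% and 13.2% in iOSN1 and 32.7%, 26.7%, 34.2% and 25.7% in mature neurons. It was lower in iOSN1 in 4 of 4 mice, although the ranges over mice overlapped.

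Raw UMI sums of the dorsal and ventral cells were tested in the same way. The test called 165 of 6904 genes, which is 2.39%, with 96 higher and 69 lower in dorsal cells. Without a filter on low counts the split was 73 higher and 103 lower, so the share higher went from 58.2% to 41.5%. The count was 108 without mouse 1, 108 without mouse 2, 64 in thinned cells and 40 with DESeq2. Nqo1, a quinone reductase of the dorsal zone, stood at 7.02, 10.9, 10.97 and 5.26 UMIs per 10000 in dorsal cells and at 0.031, 0.31, 0.32 and 0.28 in ventral ones. The log2 change was 5.26 ± 0.17 (adjusted p = 1.15e-39), and the groups were far apart in every mouse. Acsm4, an acyl-CoA synthetase gene of the dorsal zone, stood at 2.15, 2.765, 3.955 and 1.66 against at most 0.063. Nfix, a nuclear factor I gene of the ventral zone, stood at 0.28, 0.26, 0.49 and 0.92 in dorsal cells and at 2.74, 2.87, 2.61 and 2.72 in ventral cells, a change of -2.66 ± 0.21 (adjusted p = 2.9e-17). Ncam2 stood at 0.48, 0.51, 0.45 and 0.46 against 2.525, 2.64, 2.34 and 2.15, a change of -2.34 ± 0.20 (adjusted p = 7.64e-16). In each of these 4 genes the groups did not overlap. The mature clusters behind the map were drawn in part by such zone genes, but from other cells than those tested.

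Among the other zone genes the receptor of the guidance cue Slit, Robo2, rose in dorsal cells, at 1.73, 2.51, 1.67 and 1.57 against 0.86, 1.27, 0.95 and 0.77 UMIs per 10000 (log2 0.97 ± 0.17, adjusted p = 2.8e-05). Nfib was lower in dorsal cells by 1.59 on the log2 scale. Bcl11b and Rprm, which are not on the zone list and were picked by their small p, were lower by 1.13 and 1.11. Nrp2, the semaphorin receptor of ventral axons, fell by 1.01, with 1.19, 0.51, 0.33 and 1.29 against 1.455, 1.56, 2.13 and 1.62, and this call was lost without mouse 3, with a minimum of 5 receptor UMIs and with DESeq2. Of 18 tested genes of the zone list 3 rose and 9 fell, beside 2.39% of all genes called in either direction. The calls of Tshz1 and Nrp1 were each lost under 7 alternatives and that of Kirrel2 under 6, DESeq2 and thinned cells among them in all 3 genes. Calb2, Cd55 and Dlg2, which divide mature neurons into subsets, did not pass (adjusted p = 0.703, 0.854 and 0.953). Of the transduction genes 4 of 17 rose and 0 fell, beside the same 2.39%, among them Gnal and Slc12a2 by 0.52 and 0.84. The call of Gnal was lost without mouse 2, in thinned cells and with DESeq2.

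The leading genes divided here too. Socs2 stood at 8.83, 7.01, 9.62 and 6.37 UMIs per 10000 in dorsal cells and at 2.87, 3.63, 3.05 and 2.72 in ventral cells, a change of 1.41 ± 0.11 (adjusted p = 3.92e-17). The groups did not overlap. Ina was lower in dorsal cells by 0.52 (adjusted p = 0.0301), a call that was lost in 8 alternatives, whereas Prph, Dpysl3 and Ly6h did not pass, with log2 changes of -0.11, -0.01 and -0.02. Among genes on no list, the neuropeptide gene Cartpt stood at 4.30, 5.47, 7.62 and 3.69 in dorsal cells and at 0.82, 1.09, 0.66 and 1.42 in ventral cells. Tspo, an outer mitochondrial membrane protein, stood at 0.45, 0.26, 0.24 and 0.55 against 2.11, 1.82, 1.88 and 2.14, and Etv4, an ETS family factor, at 0.085, 0.064, 0.041 and 0 against 0.69, 0.22, 0.77 and 0.46. The dorsal levels of Etv4 rest on few UMIs, since the dorsal cells of a mouse held 108682 to 355334 UMIs in all. Tppp3 stood at 0.85, 1.09, 0.86 and 2.12 against 0.15, 0.15, 0.23 and 0.24.

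The dorsal to ventral difference of the same genes in mature neurons was read with the same receptor map. That map rests on clusters of these same mature neurons, drawn in part by zone genes. The differences of zone genes in mature neurons were therefore partly built in. Nqo1 had log2 differences of 4.76 ± 0.79 in iOSN1 and 5.48 ± 0.17 in mature neurons. Those of Nfix were -2.40 ± 0.73 and -3.94 ± 0.09, of Nfib -1.48 ± 0.72 and -3.38 ± 0.13, and of Socs2 1.34 ± 0.33 and 2.64 ± 0.18. Calb2, at 0.09 ± 0.43 in iOSN1, had 1.02 ± 0.11 in mature neurons. Tppp3 had 2.11 ± 0.50 in iOSN1 and -0.22 ± 0.21 in mature neurons, and Selenom, a selenoprotein of the endoplasmic reticulum, -0.84 ± 0.52 and 0.83 ± 0.09. These pairs of values are given side by side, and their difference was not tested.

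**Figure D5:**
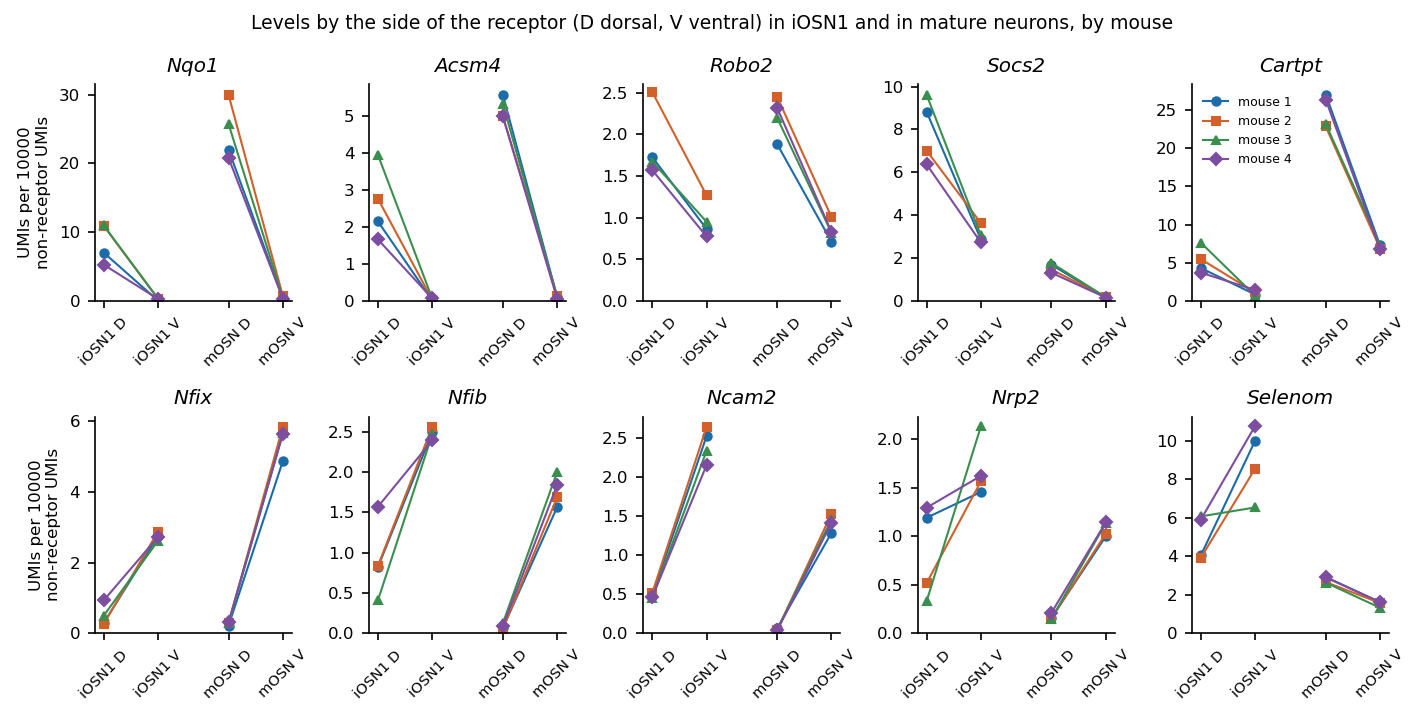
Levels of 10 genes in iOSN1 and in mature neurons whose receptor is dorsal or ventral, as UMIs per 10000 non-receptor UMIs with a point per mouse. Nqo1 in iOSN1 lies between 5.26 and 10.97 in dorsal cells and at most at 0.32 in ventral cells, and Nfix lies at 0.92 or less against 2.61 or more.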

How the data were processed

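Main olfactory epithelium of 4 mice was profiled with the 10x Genomics 3′ v3.1 chemistry, 1 library per mouse. The authors aligned reads with Cell Ranger 6.0.1 to GRCm38, with an annotation in which the ends of receptor genes had been redrawn, and deposited the raw UMI counts of every gene in every called cell, without normalization. They first clustered all called cells and removed the clusters of blood, immune and suffering cells. Of the rest they retained cells with 1000 or more genes and at most 10% mitochondrial counts. They assigned cell types in Seurat after integrating the mice. Their types were used as deposited, and no doublet caller was run here.

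The members, gene lists and tests were chosen with earlier results of these data known. Counts were summed per mouse and type and scaled to 10000 non-receptor UMIs, leaving out 1430 receptor genes. Of 55511 features, 55130 were matched to GENCODE M21. Genes at 0.2 or more in either type were compared after adding 0.1. Where cells were compared by detection, each was thinned to 3000 UMIs. Tests within iOSN1 used edgeR 4.0.16 in R 4.3.3 (TMM, filterByExpr, quasi-likelihood, Benjamini-Hochberg at 0.05) with the mouse as a block, since both sums of a mouse came from 1 animal and library. They were tested on simulated data, where 37% of 2-fold and 74% of 4-fold changes were recovered for the receptor comparison and 43% and 87% for the side comparison, with 6 and 1 wrong calls. The changed genes were drawn from those with more UMIs. The simulation gave every gene the same spread and held no differences between mice, so these rates do not carry over to all genes tested. DESeq2 1.42.0, other scalings, filters, thresholds and leaving out each mouse were the alternatives. Named genes were the 3 markers, the leading genes, the 10 genes with the largest ratio in each direction against INP and iOSN2, the 10 called genes with the smallest p in each direction of each test, and, of each list, members with the largest differences or with a role described in the text, from which the text gives a selection. Results for some named genes are not reported here. Other computations used Python 3.11.15. The range of UMI sums over all iOSN1 cells allows a floor of 0.0149 to 0.0209 UMIs per 10000 for a count of 3 in a mouse. The floor was higher in the tests within iOSN1, whose sums were smaller. Cells without a receptor numbered 13 to 34 per mouse at 3000 UMIs, and dorsal cells held 108682 to 355334 UMIs per mouse. Floors and limits cover counting error only. All 4 mice were separate animals of the same group.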

Additional observations from a re-analysis of the deposited data

Results flagged for a closer look

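Of 69 per-mouse values examined in iOSN1, 6 had a mouse apart from the other 3 by Dixon's criterion, which flags about 1 group in 20 by chance. The summed level of the INP markers was 23.32 in mouse 1, against 19.92, 20.12 and 20.02 UMIs per 10000 in mice 2 to 4. Sox11, which is on that list, was at 20.3 in mouse 1, against 17.45, 17.56 and 17.37. The markers of horizontal basal cells summed to 0.1338 in mouse 1, against 0.01332, 0.01331 and 0.02789. Ccdc28a was at 1.471 in mouse 3, against 1.254, 1.252 and 1.276.

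The blood markers summed to 24.89 in mouse 4, against 0.1288, 0.8126 and 0.2529. Without the cell that held 3483 of these UMIs the level in mouse 4 was 0.6049. Car2, a carbonic anhydrase gene, was at 0.8855 in mouse 4, against 0.05451, 0.08659 and 0.06654, and at 0.7034 without that cell, which held 27 of its UMIs.

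Selenom was lower in dorsal than in ventral iOSN1 cells in 4 of 4 mice, with a log2 difference of -0.8391, and higher in dorsal than in ventral mature neurons in 4 of 4 mice, with 0.8259. It stood at 4.047, 3.923, 6.075 and 5.909 UMIs per 10000 in dorsal and 10.02, 8.562, 6.541 and 10.79 in ventral iOSN1, and at 2.919, 2.652, 2.627 and 2.901 in dorsal and 1.597, 1.568, 1.317 and 1.617 in ventral mature neurons. The difference between the 2 stages was not tested.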

How the results depend on the processing

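The share of iOSN1 was 7.09% among cells with 2000 or more genes and 6.784% of the neuronal lineage alone, and 5.262% to 5.629% when a mouse was left out. The counts higher and lower were 225 and 177 against INP, 113 and 148 against iOSN2 and 235 and 273 against mOSN with 0.5 added. With 0.02 added, 556 genes were higher than in iOSN2. With TMM scaling 442 were higher and 1120 lower than in mOSN. Leaving out a mouse gave 785 to 944 and 436 to 471 against INP, 352 to 367 and 430 to 457 against iOSN2, and 679 to 697 and 681 to 716 against mOSN. The 12 leading genes became 10 with TMM scaling, without Ly6h and Rgs11, 15 in thinned cells, and 9 to 12 when a mouse was left out.

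A receptor at 2 or more UMIs was found in 65.6% and 79.47% of cells at 2000 and 5000 UMIs, in 66.5% at a minimum of 3 UMIs, and in 71.06% to 75.87% when a mouse was left out. Cells with 2 or more such receptors were 5.203% and 12.03% at those depths, 14.49% without thinning and 7.55% to 9.539% when a mouse was left out. This share was higher at greater depth. The depth also set which cells were counted, 858 at 2000 UMIs and 682 at 5000, and the cause was not tested.

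Between cells with and without a receptor, DESeq2 called 111 genes and a cut at 0 or 1 UMI 1102, and leaving out a mouse gave 144 to 262. Without a filter on low counts 274 genes were called, of which 166 were among the 267, and the share higher went from 49.4% to 82.5%. Without thinning 247 genes were called, of which 146 were among the 267, and the share higher was 62.8%. Between dorsal and ventral cells DESeq2 called 40 genes, thinned cells gave 64, and leaving out a mouse gave 108 to 177. The fits had the mouse as a block because both sums of a mouse share 1 library; without this block 261 and 118 genes were called, of which 249 and 117 were among the main calls. Of the named calls, 30 of 54 and 22 of 39 passed under every alternative that fitted them, and 0 of them reversed direction. Not every alternative fitted every gene: in thinned cells 119 of the 165 calls between dorsal and ventral cells were fitted. The cause of these changes was not tested.

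The cell with blood UMIs was left out after seeing the data, which gave 265 and 165 calls and the same 12 leading genes. The group without a receptor held 84 cells and the dorsal group 101, which limits what either test could detect. P-values come from fits that pool the spread between these 4 mice over genes. They can therefore be smaller than a gene's own spread over the mice would give.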
